A study of Mus musculus with 6 samples.

Results

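The genes described here build the respiratory chain, the set of protein complexes in the inner mitochondrial membrane that carries out oxidative phosphorylation. They were chosen by name from an RNA sequencing table of RAW264.7 cells, a macrophage-like line established from a mouse tumour: symbols beginning mt-Nd, mt-Co, mt-Cytb or mt-Atp for the mitochondrial genome, and Nduf, Uqcr, Uqcc, Sdha to Sdhd, Cox4 to Cox8 or Atp5 for the nuclear genome. The rule took 103 of the 10780 genes in the table, 13 encoded in mitochondria and 90 in the nucleus, and used no measured value. It was chosen, however, with earlier results of these data known. Of the 90 nuclear genes 78 encode subunits and 12 encode assembly factors, proteins that help build a complex without staying in it. Complex I (NADH dehydrogenase) had 7 mitochondrially encoded and 36 nuclear subunits, complex II (succinate dehydrogenase) 4 nuclear subunits, complex III (cytochrome bc1) 1 and 8, complex IV (cytochrome c oxidase) 3 and 15, and complex V (ATP synthase) 2 and 15.

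The 6 libraries form 3 groups of 2: control cells, cells treated with 10 ng/ml LPS (lipopolysaccharide, from the outer membrane of Gram-negative bacteria), and cells given both LPS at 10 ng/ml and Sal-B at 50 μmol/L, named LPS/Sal-B here. No group received Sal-B without LPS, and the labels neither spell out Sal-B nor give a treatment time. The libraries carry the replicate numbers 2 and 3, and replicate 1 was not analysed here. Nothing in the labels tells whether replicates came from separate cultures, so a p-value here measures library spread, which may be technical.

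Electrons enter the chain at complex I from NADH and at complex II from succinate, pass through complex III and cytochrome c, and reach oxygen at complex IV, while complex V uses the resulting proton gradient to make ATP. Complex II is encoded wholly in the nucleus, whereas the other complexes mix subunits from both genomes. The mitochondrial genome is copied into long transcripts that are then cut into messenger RNAs, so its genes share transcription and differ in how each RNA is processed and kept. Activated macrophages are known to lower respiration and to rely more on glycolysis.

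Neighbouring mitochondrial genes overlap, which bears on how their values can be read. The stretches below are the GRCm38 plus strand as annotated in GENCODE M21, shown because the overlapping genes gave unlike values; capitals mark the bases that belong to both genes of a pair.
mt-Atp8 and mt-Atp6, chrM:7915-7981: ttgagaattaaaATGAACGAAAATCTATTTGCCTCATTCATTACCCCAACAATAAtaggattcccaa
mt-Atp6 and mt-Co3, chrM:8595-8619: tgataatacataAtgacccaccaaa
mt-Nd4l and mt-Nd4, chrM:10155-10185: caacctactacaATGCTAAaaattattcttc
The end of mt-Atp8 and the start of mt-Atp6 shared 43 bases, mt-Atp6 and mt-Co3 shared 1 base, and mt-Nd4l and mt-Nd4 shared 7 bases. On opposite strands, mt-Nd5 and mt-Nd6 also overlap, at chrM:13552-13565 (not shown). mt-Atp8 with mt-Atp6, and mt-Nd4l with mt-Nd4, are each carried on a single messenger RNA in mammals. How the authors' counting divided fragments within these overlaps is not given in the sources used here. In addition, 9 of the 13 mitochondrially encoded genes and 19 of the 90 nuclear ones had an annotated copy elsewhere at 95% identity or more over at least 25% of the transcript, and values of such genes are uncertain. Among the mitochondrially encoded genes mt-Nd1, mt-Cytb, mt-Nd6 and mt-Atp8 had none.

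Levels are FPKM (fragments scaled by transcript length and by the size of the library), as the authors deposited them. Differences are of log2(FPKM + 1), which understates the change of low genes, and a gene is called higher or lower, or said to have risen or fallen, at an adjusted p under 0.05 (limma over all 10014 genes with at least 1 FPKM in 2 libraries, Benjamini-Hochberg adjustment). All 103 members passed that filter. The fit shares its spread between the groups, but replicates differed more in control. The SD of their log2 difference over genes was 0.44 in control, 0.27 with LPS and 0.19 with LPS/Sal-B. A fit without a control library thus takes its spread from the treated libraries alone, and its p-values may be too small. The libraries held 8639 to 9847 genes at 1 FPKM or more and FPKM totals of 309767 to 374371; no fragment counts were used. The spacing of low values gave rough estimates of 3350000 to 8860000 fragments a library, each from only 7 to 13 values, which were too scattered to use as depths. The median difference over all genes tested was -0.40 for LPS against control, -0.22 for LPS/Sal-B against LPS and -0.63 for LPS/Sal-B against control, so each member's difference is to be read against these shifts. Of 10 macrophage markers 9 were in the table, with summed levels of 2156 to 2607 FPKM in control, 2275 to 2315 with LPS and 1264 to 1296 with LPS/Sal-B. The sum hides that with LPS 4 of the 9 were called lower and 1 higher, beside 48.9% and 14.2% of all genes. Among those lower, Csf1r went from 149 and 117 FPKM to 39.4 and 38.1 FPKM. Of 5 T cell and 5 B cell markers 1 each was in the table, Lck at 0.842 to 1.91 FPKM and Cd79b at 0.305 to 1.43 FPKM, and none of the fibroblast or epithelial markers was. In such bulk libraries, fewer cells of a type and less RNA per cell cannot be told apart.

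With LPS, most of the RNA from the mitochondrial genome that encodes complex I and complex III dropped, while the RNA for most of complexes IV and V did not. Among the 13 genes encoded in mitochondria 9 fell and 1 rose, against 48.9% of all genes tested called lower and 14.2% called higher. All 7 complex I genes, mt-Cytb of complex III and mt-Co2 of complex IV made up those that fell. All 9 stayed called under every rescaling between libraries and with any 1 library left out.

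The steepest fall was in mt-Nd3, a small membrane subunit of complex I. It measured 1756 and 1688 FPKM in control, 122 and 129 FPKM with LPS, and 215 and 212 FPKM with LPS/Sal-B. The LPS libraries stood at 7.28% of the control mean, a log2 difference of -3.77 ± 0.08 (SE, adjusted p = 2e-05). The 3 groups did not overlap, and the LPS/Sal-B libraries lay between the other groups at 12.4% of control, above LPS by 0.76 ± 0.08 (adjusted p = 0.0024).

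mt-Cytb, the only mitochondrially encoded subunit of complex III, measured 11933 and 11889 FPKM in control, 2321 and 2308 FPKM with LPS, and 3437 and 3360 FPKM with LPS/Sal-B. It fell by 2.36 ± 0.08 on the log2 scale with LPS (adjusted p = 6.39e-05), to 19.4% of control, and stood at 28.5% with Sal-B present. mt-Nd1, a membrane subunit next to the quinone site, went from 8054 and 7061 FPKM to 1459 and 1484 FPKM and then 2123 and 2082 FPKM. Both genes showed the same order of groups, control highest and LPS lowest, with no overlap.

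mt-Nd4l, mt-Nd2 and mt-Nd4, proton-pumping membrane subunits of complex I or parts of its membrane arm, fell by 2.42, 1.89 and 1.55 on the log2 scale with LPS. mt-Nd5, at the far end of that arm, fell least among the complex I genes: it measured 3289 and 3907 FPKM in control, 1933 and 1918 FPKM with LPS, and 2681 and 2697 FPKM with LPS/Sal-B. mt-Nd6 is the only protein-coding gene on the other strand of the mitochondrial genome. It measured 364 and 492 FPKM, 158 and 157 FPKM, and 228 and 210 FPKM in the same order of groups, a fall by 1.42 ± 0.15 with LPS. A gene read from the opposite strand was among those that fell. It overlaps mt-Nd5, which also fell and measured higher, and how fragments in the overlap were divided is not given.

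In complex IV the 3 catalytic core subunits parted. mt-Co2, which takes electrons from cytochrome c, measured 9138 and 8319 FPKM in control, 3366 and 3477 FPKM with LPS, and 4627 and 4596 FPKM with LPS/Sal-B. mt-Co1, which holds the oxygen-reducing site, measured 20825 and 26117 FPKM, then 28653 and 30989 FPKM, then 32417 and 30355 FPKM. Its difference with LPS was 0.35 ± 0.14 (adjusted p = 0.0659), and it passed the threshold when either control library was left out (adjusted p 0.00238 in one case and just under 0.05 in the other). It turned to -0.057, with no call, when libraries were scaled to the same nuclear total. mt-Co3, the third core subunit, rose by 0.33 ± 0.08 with LPS (adjusted p = 0.0143), from 3905 and 4026 FPKM to 4927 and 5014 FPKM. That call was lost without any 1 of the 4 treated libraries (adjusted p 0.0567 to 0.123) and with libraries scaled to the same total, and the difference turned to -0.084 when libraries were scaled to the same nuclear total.

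Of the mitochondrially encoded subunits of complex V, mt-Atp6 forms the proton channel and mt-Atp8 is a small membrane subunit beside it. mt-Atp6 measured 12619 and 12616 FPKM in control and 12357 and 12741 FPKM with LPS, overlapping groups, and 17261 and 16281 FPKM with LPS/Sal-B. mt-Atp8 measured 9281 and 8950 FPKM, 7662 and 8260 FPKM, and 6792 and 6516 FPKM. With LPS neither was called (differences of -0.01 and -0.20, adjusted p = 0.938 and 0.099). mt-Atp8 was called lower without either control library (adjusted p 0.0203 to 0.0454), and mt-Atp6 turned to 0.43 and was called higher when libraries were scaled to the same median.

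**Figure D1:**
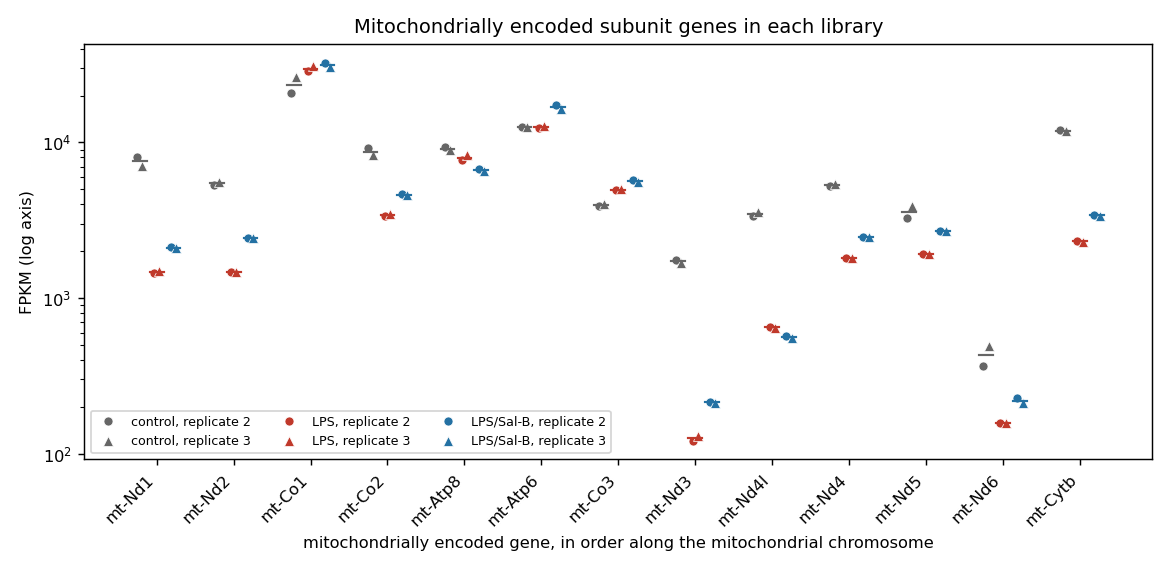
Level of each of the 13 mitochondrially encoded genes in the 6 libraries, in FPKM on a log axis, in their order along the mitochondrial chromosome; circles and triangles are replicates 2 and 3 and bars are group means. mt-Co1, mt-Atp8, mt-Atp6 and mt-Co3 keep LPS levels near control, while the other 9 genes are called lower with LPS. The LPS libraries of mt-Atp8 also lie below both control libraries, but without a call.

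Grouped after their values were seen, mt-Co1, mt-Atp8, mt-Atp6 and mt-Co3 together held 49.0% and 51.9% of the mitochondrially encoded FPKM in control, 80.1% and 81.0% with LPS, and 76.8% and 75.9% with LPS/Sal-B. These 4 genes are not one uninterrupted block, since mt-Co2 lies between mt-Co1 and mt-Atp8 and fell. By complex, the share of complex I in the mitochondrially encoded FPKM was 28.8% and 27.8% in control, 11.4% and 10.8% with LPS and 13.2% and 13.8% with LPS/Sal-B. The share of complex IV was 35.6% and 38.6%, 55.2% and 56.1%, and 52.8% and 52.4%. All 13 genes together took 29.1% and 30.7% of all FPKM in control, 18.1% and 18.8% with LPS, and 26.0% and 24.97% with LPS/Sal-B.

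Between LPS/Sal-B and LPS alone, 8 of the 13 mitochondrially encoded genes were higher and none was lower, against 10.5% of all genes called higher and 31.8% called lower. This comparison shares the LPS libraries with the one before, so a gene measured low in them by error would appear to fall in the first and to rise in the second. mt-Nd2, mt-Nd3, mt-Cytb, mt-Nd1, mt-Nd5, mt-Nd4, mt-Co2 and mt-Atp6 were the genes called, with differences of 0.42 to 0.76. mt-Nd2 measured 5363 and 5540 FPKM in control, 1467 and 1480 FPKM with LPS and 2427 and 2436 FPKM with LPS/Sal-B, a rise over LPS of 0.72 ± 0.08 (adjusted p = 0.00253). mt-Nd2 and mt-Nd3 kept the call with any 1 library left out, whereas the other 6 lost it without any 1 of the 4 treated libraries (adjusted p 0.0548 to 0.132). All 8 kept it under every rescaling, and without either control library 10 genes were called higher and 2 lower.

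Genes that share a messenger RNA gave unlike values between LPS/Sal-B and LPS alone. mt-Atp6 rose by 0.42 ± 0.08 (adjusted p = 0.0139) while mt-Atp8 differed by -0.26 ± 0.09 (adjusted p = 0.0619). mt-Nd4 rose by 0.43 ± 0.08 (adjusted p = 0.00909), and mt-Nd4l measured 649 and 646 FPKM with LPS and 568 and 554 FPKM with LPS/Sal-B (difference -0.21 ± 0.08, adjusted p = 0.0835). Leaving out either control library put mt-Atp8 (adjusted p 0.00756 to 0.00769) and mt-Nd4l (0.00214 to 0.00217) past the threshold as lower, while the 4 scalings placed mt-Atp8 between -0.02 and 0.33 and mt-Nd4l between 0.03 and 0.18. The difference between the genes of a pair was not itself tested.

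Against control, 10 of the 13 were lower with LPS/Sal-B and 3 were higher, beside 58.8% and 14.0% of all genes. Of the 9 genes that fell with LPS, mt-Nd5 stood nearest its control level at 74.7% and mt-Nd3 farthest at 12.4%. mt-Co3, mt-Co1 and mt-Atp6 were above control by 0.51, 0.43 and 0.41. mt-Co3 kept that call in each alternative, mt-Co1 lost it without any 1 treated library (adjusted p 0.0793 to 0.157) and with libraries scaled to the same nuclear total, and mt-Atp6 lost it without LPS/Sal-B replicate 2 (0.0739). Quantile normalization put the differences of mt-Co1, mt-Atp6 and mt-Atp8 from control at 0, with no call. That method sets each value by its rank within the library, so a gene that keeps its rank gets 0 whatever its FPKM. A 0 of that kind cannot weigh the calls. mt-Atp8 was below control by 0.45 but above it by 0.22 when libraries were scaled to the same median, and lost the call without LPS/Sal-B replicate 3 (adjusted p = 0.0545). mt-Nd5 lost its call without either LPS/Sal-B library (0.0791 to 0.084) and under quantile normalization, and turned to 0.26 with libraries scaled to the same median.

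The balance of mitochondrially encoded over nuclear subunit RNA within a complex was measured in each library as the log2 ratio of the FPKM sums, which does not change when a library's values are multiplied by a constant; the effect of quantile normalization on it was not tested. In complex I it was 3.91 and 3.97 in control, 1.91 and 1.93 with LPS and 2.94 and 2.95 with LPS/Sal-B. As plain ratios the mitochondrially encoded sum was 15.4 times the nuclear one in control, 3.78 times with LPS and 7.71 times with LPS/Sal-B. The log2 ratio differed by -2.02 between LPS and control and by -0.995 between LPS/Sal-B and control, so the libraries with Sal-B stood between the other groups. Both sides of the ratio moved. The mean mitochondrially encoded sum was 27554 FPKM in control, 7620 FPKM with LPS and 10672 FPKM with LPS/Sal-B. The mean nuclear sum was 1794, 2015 and 1385 FPKM in the same order, lowest with LPS/Sal-B.

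Complex III showed the same order, with log2 ratios of 3.80 and 3.63 in control, 1.10 and 1.08 with LPS, and 2.15 and 2.12 with LPS/Sal-B. Its mitochondrially encoded side is mt-Cytb alone, and its mean nuclear sum was 908.5 FPKM in control, 1091 FPKM with LPS and 773 FPKM with LPS/Sal-B. In complex IV the log2 ratios were 3.98 and 4.12, 3.72 and 3.82, and 4.56 and 4.47, and in complex V they were 4.35 and 4.42, 4.11 and 4.16, and 4.995 and 4.887. In these complexes LPS differed from control by -0.28 and -0.25, and LPS/Sal-B by 0.47 and 0.55. From LPS to LPS/Sal-B the mean nuclear sums went from 2806 to 1821 FPKM in complex IV and from 1167 to 762 FPKM in complex V. The mean mitochondrially encoded sums went from 38213 to 41639 FPKM and from 20510 to 23425 FPKM. In all 4 complexes the 3 groups did not overlap. With 2 libraries a group, no permutation test of 1 ratio can reach the threshold, and none was run. When the median member of each genome replaced the sum, the ratio of complex IV with LPS/Sal-B was 0.39 below control rather than above it.

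**Figure D2:**
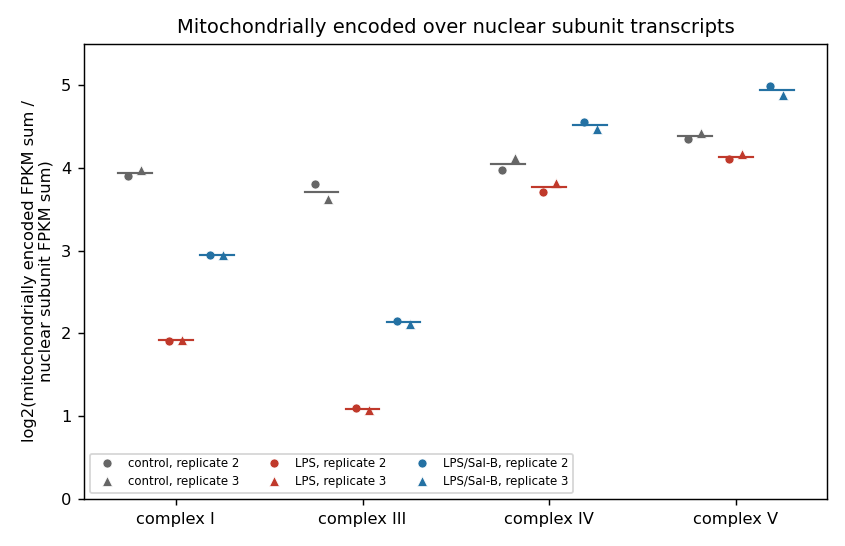
Log2 ratio of the summed FPKM of mitochondrially encoded subunits to that of nuclear subunits of the same complex, for each library (points) with group means (bars); complex II has no mitochondrially encoded subunit. LPS libraries differ from control by -2.02 and -2.63 in complexes I and III and by -0.28 and -0.25 in complexes IV and V.

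Nuclear members followed another course. With LPS 35 of the 90 rose and 16 fell, where 14.2% of all genes were called higher and 48.9% lower, and their median difference was 0.17 beside -0.40 for all genes. With LPS/Sal-B against LPS 4 rose and 63 fell, where 10.5% and 31.8% of all genes were called, and the median was -0.55 beside -0.22. Against control, LPS/Sal-B left 13 higher and 46 lower (14.0% and 58.8% of all genes), with a median of -0.31 beside -0.63. Called either way were 63.1%, 42.3% and 72.8% of all genes in the 3 comparisons. By mere lack of overlap between groups, 44 of the 90 were higher and 30 lower with LPS (20.4% and 60.8% of all genes), 7 and 75 from LPS to LPS/Sal-B (24.9% and 58.1%), and 22 and 54 over control (19.2% and 67.9%). The summed FPKM of the 90 was 6254 and 6305 in control, 7400 and 7392 with LPS, and 4923 and 4952 with LPS/Sal-B. As a share of all FPKM it was 1.91% and 1.94% in control, 2.00% and 1.97% with LPS, and 1.58% and 1.60% with LPS/Sal-B. Its share of the FPKM outside the mitochondrially encoded genes was instead lower with LPS. That share was 2.69% and 2.81% in control, 2.44% and 2.43% with LPS, and 2.14% and 2.13% with LPS/Sal-B.

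The split into rises and falls depended on how libraries were put on one scale. With LPS, 24 rose and 30 fell after scaling to the same total, 15 and 37 after scaling to the same nuclear total, 58 and 7 after scaling to the same median, and 34 and 19 after quantile normalization. Between LPS/Sal-B and LPS the same scalings gave 4 and 30, 9 and 20, 4 and 40, and 4 and 28. Against control they gave 17 and 43, 12 and 46, 43 and 18, and 23 and 36. The median over all genes moved with the scale as well. In the same order of scalings it was -0.56, -0.73, -0.04 and -0.04 with LPS. It was -0.04, 0.06, -0.06 and -0.02 from LPS to LPS/Sal-B, and -0.57, -0.65, -0.09 and -0.04 against control. Of the 35 that rose with LPS 14 did so under every scaling and with any 1 library left out, as did 6 of the 16 that fell, 17 of the 63 that were lower with Sal-B than with LPS alone, and none of the 4 that were higher. The number lower with Sal-B than with LPS alone was 25 and 31 when replicates 2 and 3 of LPS were left out in turn, 18 and 22 when those of LPS/Sal-B were, and 72 for either control library. In the same comparison 5 of the 9 macrophage markers were also lower and 1 was higher, beside 31.8% and 10.5% of all genes. Those lower included Cd68 at 897 and 915 FPKM with LPS and 392.3 and 395 FPKM with LPS/Sal-B. The one higher was Itgam, an integrin chain, at 18.1 and 17.2 FPKM with LPS and 26.5 and 25.9 FPKM with LPS/Sal-B (0.54 ± 0.08, adjusted p = 0.006). The part of these marker changes in the members' fall was not tested.

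**Figure D3:**
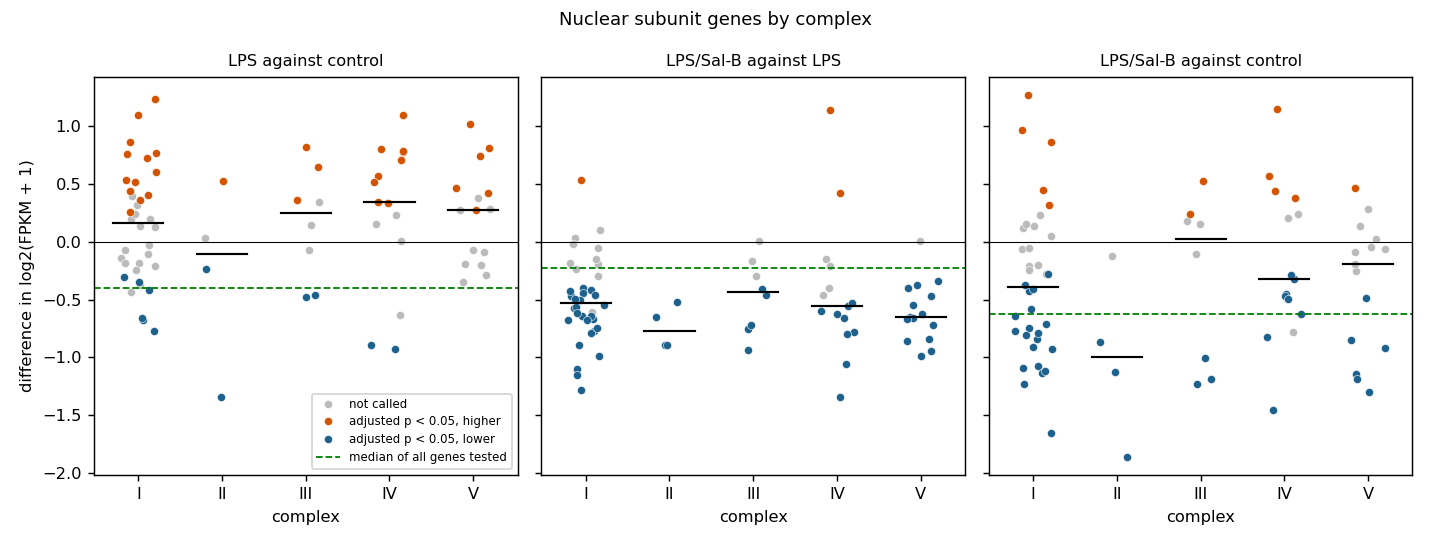
Difference in log2(FPKM + 1) of each of the 78 nuclear subunit genes, by complex, in the 3 comparisons; colours mark genes called higher or lower, black bars are the median of a complex and the dashed line is the median of all genes tested. In the middle panel 14 of 15 complex V genes and 4 of 4 complex II genes are called lower, beside 31.8% of all genes. Of these only Atp5c1, Atp5k, Sdhc and Sdhd keep the call under every scaling and with any 1 library left out.

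Complex I had 36 nuclear subunits, of which 13 rose and 6 fell with LPS, beside 14.2% and 48.9% of all genes. The 7 core subunits, which carry the flavin, the iron-sulphur clusters and the quinone site, had a median of -0.42 with 2 higher and 3 lower, and the 29 accessory subunits had a median of 0.19 with 11 higher and 3 lower. Ndufv2, a core iron-sulphur subunit beside the flavin, measured 66.9 and 67.5 FPKM in control, 43.8 and 40.8 FPKM with LPS, and 29.8 and 31.1 FPKM with LPS/Sal-B. It fell by 0.66 ± 0.08 with LPS (adjusted p = 0.00152), a call lost at -0.22 with libraries scaled to the same median. It was lower again with Sal-B than with LPS alone, by 0.46 (adjusted p = 0.00959), a call lost without any 1 treated library (0.0505 to 0.0992) and under each of the 4 scalings.

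Ndufs8, a core subunit with iron-sulphur clusters, took the opposite course with LPS: 132 and 102 FPKM in control, 199 and 198 FPKM with LPS, and 129 and 130 FPKM with LPS/Sal-B. Its rise was 0.77 ± 0.13 (adjusted p = 0.00475), and the LPS/Sal-B libraries lay within the control range. Among accessory subunits, Ndufc1 measured 16.3 and 13.9 FPKM in control, 33.5 and 40.3 FPKM with LPS and 38.3 and 37.0 FPKM with LPS/Sal-B. It rose by 1.23 ± 0.13 with LPS (adjusted p = 0.000874), and its treated groups overlapped. Ndufb6, at 22.3 and 18.3, then 47.1 and 41.7, then 35.9 and 39.2 FPKM, and Ndufb2, at 1.84 and 1.96, then 3.97 and 4.58, then 4.69 and 4.60 FPKM, were likewise above control in both treated groups.

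Ndufv3, an accessory subunit near the flavin site, fell by 0.77 ± 0.09 with LPS (adjusted p = 0.00118), from 63.8 and 71.6 FPKM to 38.7 and 39.5 FPKM, and measured 38.8 and 38.5 FPKM with LPS/Sal-B. Its difference between the treated groups was -0.02, and it was called higher at 0.36 when libraries were scaled to the same nuclear total. Between LPS/Sal-B and LPS, 25 nuclear subunits of complex I fell and 1 rose, beside 31.8% and 10.5% of all genes. The largest fall was in Ndufa9, an accessory subunit at the junction of the arms, at 42.7 and 28.1 FPKM in control, 27.1 and 26.0 FPKM with LPS and 9.99 and 10.7 FPKM with LPS/Sal-B. Its difference from LPS was -1.28 ± 0.20 (adjusted p = 0.00621, and 0.0559 without LPS/Sal-B replicate 2).

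Ndufs4, an accessory subunit of the peripheral arm, rose with LPS and then fell below control, from 26.0 and 24.2 FPKM to 34.2 and 34.2 FPKM and then 14.8 and 15.0 FPKM. The rise was not called, at 0.04, with libraries scaled to the same nuclear total, nor was the fall below control, at -0.07, with the same median. The difference from LPS was -1.15 ± 0.08 (adjusted p = 0.00165) and held with any 1 library left out. Ndufa5 differed from LPS by -1.10 ± 0.23 (adjusted p = 0.0154), but its LPS/Sal-B libraries stood apart at 24.4 and 15.2 FPKM, and the call was lost without LPS replicate 2, LPS replicate 3 or LPS/Sal-B replicate 3 (0.053 to 0.0899), and with the same nuclear total or quantile normalization. Ndufb10, which went from 44.5 and 47.1 FPKM to 37.0 and 34.5 FPKM and then 20.2 and 20.3 FPKM, held its fall from LPS of 0.79 in each alternative. Its fall by 0.35 with LPS was lost without any 1 treated library (adjusted p 0.0528 to 0.104) and turned to 0.080 with libraries scaled to the same median. Ndufa10 was the subunit that rose over LPS, with 31.8 and 26.2 FPKM in control, 25.2 and 24.4 FPKM with LPS and 36.4 and 36.0 FPKM with LPS/Sal-B. That rise was 0.53 ± 0.11 (adjusted p = 0.016, and 0.0806 to 0.108 without any 1 treated library).

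All 4 subunits of complex II were lower with LPS/Sal-B than with LPS alone, by 0.52 to 0.89, beside 31.8% of all genes. With LPS the 4 parted. Sdha, the flavin-bearing catalytic subunit that oxidises succinate, measured 51.9 and 46.1 FPKM in control, 19.6 and 18.0 FPKM with LPS and 12.7 and 12.8 FPKM with LPS/Sal-B. It fell by 1.34 ± 0.10 with LPS (adjusted p = 0.00039), the largest fall among the 78 nuclear subunits in that comparison. Sdhb, the iron-sulphur subunit bound to it, measured 25.3 and 17.2 FPKM, 31.3 and 29.8 FPKM, and 18.5 and 19.7 FPKM. Its rise with LPS of 0.53 ± 0.18 (adjusted p = 0.0474) was lost without any 1 treated library (0.0845 to 0.171) and with the same total or nuclear total, while Sdha kept its call in each alternative.

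Sdhc and Sdhd anchor complex II in the membrane. Sdhc measured 34.2 and 32.2 FPKM in control, 33.2 and 34.5 FPKM with LPS and 17.8 and 17.8 FPKM with LPS/Sal-B, and Sdhd 133 and 145 FPKM, 117 and 117 FPKM, and 62.2 and 63.5 FPKM. Both differed from LPS by -0.89 ± 0.08 (adjusted p = 0.0021 and 0.00208), with every alternative keeping the call. With LPS, Sdhc did not differ beyond its spread (0.03 ± 0.08, adjusted p = 0.775), though it was called lower at -0.37 when libraries were scaled to the same nuclear total. The fall of Sdhd by 0.24 with LPS (adjusted p = 0.0474) was lost without any 1 treated library (0.125 to 0.182) and turned to 0.20 when libraries were scaled to the same median. The calls of Sdha and Sdhb against LPS were likewise lost without any 1 treated library (0.0521 to 0.166) and with the same total or nuclear total, and that of Sdhb also with the same median or quantile normalization.

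**Figure D4:**
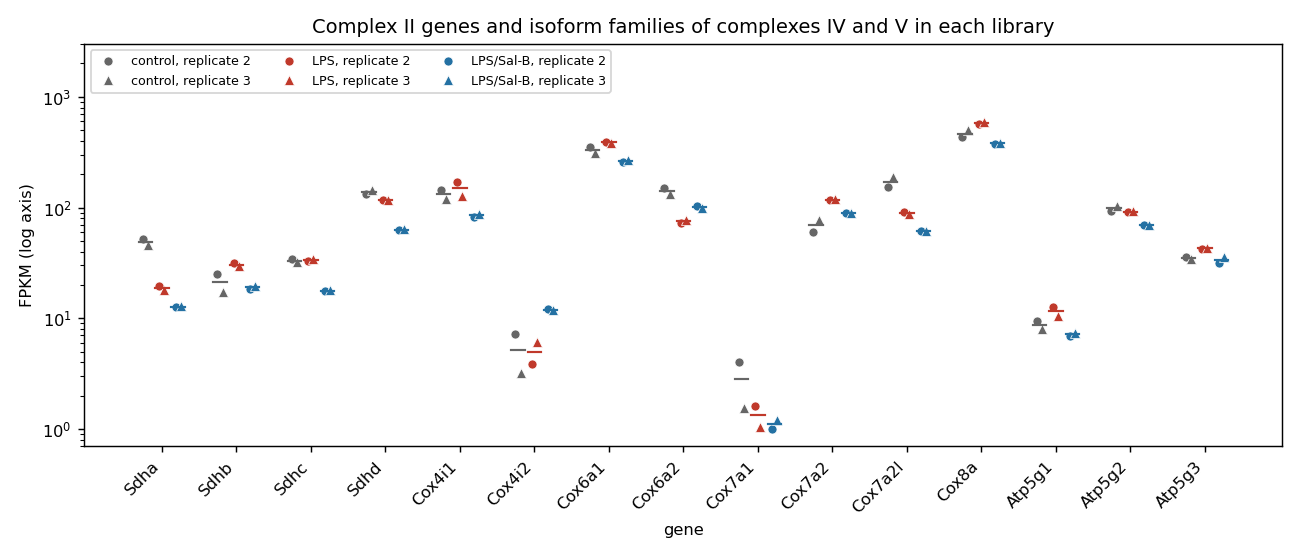
Level in each library of the 4 complex II genes and of members of the Cox4i, Cox6a, Cox7a, Cox8 and Atp5g families, in FPKM on a log axis; circles and triangles are replicates 2 and 3 and bars are group means. Sdha falls from control to LPS, and Cox6a2 lies highest in control, between in LPS/Sal-B and lowest in LPS, while Cox6a1 does not follow that order.

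In complex III 3 of the 8 nuclear subunits rose and 2 fell with LPS, beside 14.2% and 48.9% of all genes. The small subunit Uqcrb, which sits near the quinone site, had the highest mean level, at 247 and 256 FPKM in control, 390 and 398 FPKM with LPS and 296 and 296 FPKM with LPS/Sal-B, a rise by 0.65 ± 0.07 with LPS (adjusted p = 0.0011) that was not called, at 0.14, under quantile normalization. Uqcrq rose from 72.3 and 50.2 FPKM to 102 and 112 FPKM, a difference of 0.82 ± 0.18 (adjusted p = 0.00992, and 0.064 without LPS replicate 3), not called at 0.41 with libraries scaled to the same nuclear total. Uqcr10 rose by 0.36 (adjusted p = 0.00772) but not without LPS replicate 2 or 3 (0.0563 to 0.066), and stood at -0.048 when libraries were scaled to the same nuclear total. Uqcrb and Uqcr10 were then lower with Sal-B than with LPS alone, by 0.41 and 0.46, calls lost without any 1 treated library (0.0546 to 0.0956) and under each of the 4 scalings.

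The 2 that fell were larger subunits. Uqcrfs1, the Rieske iron-sulphur protein that passes electrons toward cytochrome c, measured 53.9 and 54.6 FPKM in control, 40.4 and 37.9 FPKM with LPS and 22.4 and 24.2 FPKM with LPS/Sal-B. Uqcrc2, a core protein of the matrix side, measured 89.7 and 86.1 FPKM, 64.8 and 61.2 FPKM, and 35.3 and 38.8 FPKM. They fell by 0.46 and 0.47 with LPS (adjusted p = 0.006 and 0.00617, and 0.0502 and 0.052 without LPS replicate 3), and neither was called, at -0.03 and -0.04, with libraries scaled to the same median. They fell again by 0.72 and 0.75 from LPS to LPS/Sal-B (adjusted p = 0.00342 and 0.00336), with every alternative keeping the call. Uqcrh, the acidic hinge protein, measured 177 and 293 FPKM in control, 215 and 218 FPKM with LPS and 116 and 110 FPKM with LPS/Sal-B. With LPS it was not called (-0.07 ± 0.23, adjusted p = 0.799), but leaving out a control library gave a call in either direction: lower at -0.43 without replicate 2 and higher at 0.29 without replicate 3 (adjusted p 0.00134 to 0.00443). Its fall by 0.93 from LPS to LPS/Sal-B (adjusted p = 0.0248) was lost without any 1 treated library (0.107 to 0.117) and under each of the 4 scalings.

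Of the 15 nuclear subunits of complex IV 9 rose and 2 fell with LPS, beside 14.2% and 48.9% of all genes. Cox8a, a small membrane subunit, had the highest mean level, at 430 and 500 FPKM in control, 570 and 597 FPKM with LPS and 375 and 383 FPKM with LPS/Sal-B. Its rise by 0.33 ± 0.10 (adjusted p = 0.0312) was lost without any 1 treated library (0.0796 to 0.168), and it stood at -0.080 and -0.19 after scaling to the same nuclear total and quantile normalization. Cox7b, another small membrane subunit, rose by 1.09 ± 0.10 (adjusted p = 0.000538), from 114 and 131 FPKM to 267 and 257 FPKM, and measured 164 and 168 FPKM with LPS/Sal-B. Ndufa4, named for complex I but found in complex IV, rose by 0.80 ± 0.11 (adjusted p = 0.00231), and Cox7c by 0.78 ± 0.08 (adjusted p = 0.000943). Cox7c stayed high with Sal-B, at 100 and 111 FPKM in control, 180 and 183 FPKM with LPS and 155 and 157 FPKM with LPS/Sal-B.

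From LPS to LPS/Sal-B 9 nuclear subunits of complex IV fell and 2 rose, beside 31.8% and 10.5% of all genes. Cox6c fell most, by 1.34 ± 0.12 (adjusted p = 0.0021), with 37.2 and 45.9 FPKM in control, 57.2 and 62.1 FPKM with LPS and 23.6 and 22.3 FPKM with LPS/Sal-B. Cox5a, which binds the core from the matrix side, fell by 0.80 ± 0.10 (adjusted p = 0.00423), from 92.5 and 88.5 FPKM to 54.7 and 48.5 FPKM. Cox6b1, which faces the intermembrane space, fell by 1.06 ± 0.09 (adjusted p = 0.00194), from 590 and 594 FPKM to 289 and 280 FPKM, after 378 and 423 FPKM in control. These 3 falls held under each scaling and with any 1 library left out.

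Several complex IV subunits exist as isoforms encoded by separate genes, some widely expressed and some typical of muscle and heart or, for Cox4i2, of lung. In the Cox6a family the muscle-type Cox6a2 measured 150 and 133 FPKM in control, 73.2 and 77.7 FPKM with LPS, and 103 and 99.8 FPKM with LPS/Sal-B. It fell by 0.89 ± 0.09 with LPS (adjusted p = 0.000886), a call each alternative kept, and stood 0.42 above LPS with Sal-B present (adjusted p = 0.0183, and 0.0797 to 0.133 without any 1 treated library). The widely expressed Cox6a1 measured 350 and 310 FPKM, 389 and 386 FPKM, and 257 and 269 FPKM. Its difference with LPS was 0.23 ± 0.09 (adjusted p = 0.0683), which turned to -0.28 under quantile normalization and was called higher without either control library (0.00234 to 0.0264), and it was 0.56 lower with Sal-B than with LPS alone (adjusted p = 0.00738, and 0.0578 to 0.078 without any 1 treated library), a call lost under each scaling but that to the same median. Whether the isoforms differ in their change was not tested.

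In the Cox4i family Cox4i1, the common form, measured 145 and 120 FPKM in control, 171 and 126 FPKM with LPS, and 82.4 and 88.0 FPKM with LPS/Sal-B. Cox4i2 measured 7.25 and 3.18 FPKM, 3.88 and 6.14 FPKM, and 12.1 and 11.9 FPKM. It rose by 1.14 ± 0.35 from LPS to LPS/Sal-B (adjusted p = 0.0469, and 0.0843 to 0.21 without any 1 treated library), where Cox4i1 fell by 0.78 ± 0.17 (adjusted p = 0.0177, and 0.0809 to 0.107 without LPS replicate 2 or either LPS/Sal-B library). The call of Cox4i2 was also lost with a pseudocount of 0.1, and that of Cox4i1 under each scaling but that to the same median. In the Cox7a family, Cox7a2l, which takes part in joining complexes into supercomplexes, fell by 0.92 ± 0.11 with LPS (adjusted p = 0.00145), from 154 and 188 FPKM to 91.4 and 86.9 FPKM, and measured 61.2 and 61.8 FPKM with LPS/Sal-B. Cox7a2 rose by 0.77 ± 0.13 (adjusted p = 0.00408), from 60.5 and 77.8 FPKM to 118 and 118 FPKM, not called at 0.37 with libraries scaled to the same nuclear total, and measured 89.2 and 89.5 FPKM with LPS/Sal-B. The muscle-type Cox7a1 was near the floor of the table, at 1.00 to 4.06 FPKM, and was called in no comparison, though it was called lower with LPS and with LPS/Sal-B without control replicate 3 (adjusted p = 0.00577 and 0.00299).

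Complex V had 6 of 15 nuclear subunits higher and none lower with LPS, beside 14.2% and 48.9% of all genes. With LPS/Sal-B 14 of 15 were lower than with LPS alone, beside 31.8% of all genes. Of these 14, only Atp5c1 and Atp5k kept the call under every scaling and with any 1 library left out. The largest rise with LPS was in Atp5e, the small epsilon subunit of the central stalk, which measured 46.8 and 52.6 FPKM in control, 104 and 98.7 FPKM with LPS and 69.0 and 68.9 FPKM with LPS/Sal-B. It rose by 1.01 ± 0.09 (adjusted p = 0.000577). Atp5l, at 27.6 and 30.0, then 45.6 and 57.4, then 28.9 and 35.0 FPKM, and Atp5k, at 104 and 92.2, then 164 and 165, then 101 and 98.9 FPKM, rose by 0.81 and 0.74. With libraries scaled to the same nuclear total the rise of Atp5l was not called, at 0.41, while Atp5k kept its call. These are small membrane subunits that hold the enzyme's dimer together, and Atp5k had the highest mean level of the nuclear subunits of complex V.

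Atp5b, Atp5c1 and Atp5f1 were among the 9 not called with LPS. Atp5b, the catalytic beta subunit, measured 150 and 109 FPKM in control, 105 and 105 FPKM with LPS, and 55.6 and 58.9 FPKM with LPS/Sal-B. With LPS its difference was -0.28 ± 0.16 (adjusted p = 0.168, and 0.00123 without control replicate 3). Atp5c1, the gamma subunit that turns within the catalytic head, fell by 0.99 ± 0.12 from LPS to LPS/Sal-B (adjusted p = 0.00318), from 77.7 and 79.3 FPKM to 39.2 and 38.8 FPKM. With LPS the differences of Atp5c1 and of Atp5f1, a part of the outer stalk, were -0.19 and -0.35 (adjusted p = 0.192, or 0.00239 without control replicate 2, and 0.062, or 0.00382 without control replicate 3). Atp5f1 fell by 0.95 ± 0.13 from LPS to LPS/Sal-B (adjusted p = 0.00488, and 0.0512 without LPS/Sal-B replicate 2). The genes Atp5g1, Atp5g2 and Atp5g3 encode the same ring subunit c and measured 8.72, 98.5 and 35.2 FPKM on average in control. With Sal-B they were lower than with LPS alone by 0.63, 0.40 and 0.34 (adjusted p = 0.0163, 0.0184 and 0.0355), each call lost when some 1 treated library was left out (0.0831 to 0.249). None of the 3 was called under any of the 4 scalings, except Atp5g1 with libraries scaled to the same median.

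Among the 12 assembly factors 3 rose and 4 fell with LPS, and 1 rose and 6 fell from LPS to LPS/Sal-B. Over all genes 14.2% rose and 48.9% fell in the first comparison and 10.5% and 31.8% in the second. Uqcc2 and Uqcc3, which act early in building complex III around cytochrome b, went in opposite directions. Uqcc2 rose by 0.82 ± 0.11 (adjusted p = 0.00165), from 27.1 and 27.2 FPKM to 52.9 and 45.1 FPKM, and measured 33.5 and 36.1 FPKM with LPS/Sal-B. Uqcc3 fell by 1.05 ± 0.12 (adjusted p = 0.00106), from 16.2 and 18.1 FPKM to 7.20 and 8.38 FPKM, and measured 5.55 and 6.10 FPKM with LPS/Sal-B. Both kept these calls in each alternative.

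Of the complex I factors, Ndufaf8 and Ndufaf5 rose by 0.90 and 0.70 with LPS and Ndufaf7 fell by 0.81 (adjusted p = 0.00383, 0.00882 and 0.00255; Ndufaf5 gave 0.0577 without LPS replicate 2). Ndufaf5 was not called, at 0.32, with libraries scaled to the same nuclear total, nor Ndufaf7, at -0.36, under quantile normalization. Ndufaf3 fell by 1.25 ± 0.14 from LPS to LPS/Sal-B (adjusted p = 0.00314), with 9.46 and 9.20 FPKM in control, 7.31 and 9.43 FPKM with LPS and 2.67 and 3.17 FPKM with LPS/Sal-B. Ndufaf4 was the factor that rose, from 2.64 and 3.08 FPKM to 6.60 and 6.62 FPKM, after 3.30 and 5.55 FPKM in control (0.98 ± 0.21, adjusted p = 0.0162, and 0.0661 to 0.0925 without any 1 treated library). Atp5s, linked to complex V, fell by 1.24 ± 0.29 with LPS (adjusted p = 0.0133, and 0.0774 without LPS replicate 2), a call also lost with libraries scaled to the same median and under quantile normalization.

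Genes that serve the mitochondrial genome were measured beside its transcripts. Of 14 genes for mitochondrial transcription and replication, none rose and 11 fell with LPS, beside 14.2% and 48.9% of all genes, with a median of -0.84 beside -0.40. Tfb2m, the factor that opens the mitochondrial promoter, measured 17.2 and 17.7 FPKM in control, 3.19 and 3.33 FPKM with LPS and 1.95 and 1.83 FPKM with LPS/Sal-B. It fell by 2.12 ± 0.09 with LPS (adjusted p = 0.000144). Tefm, which keeps the polymerase elongating, fell by 1.80, Twnk, the replicative helicase, by 1.47 and Mterf1a by 1.45. From LPS to LPS/Sal-B 1 of the 14 rose and 6 fell, beside 10.5% and 31.8% of all genes, with Mterf3, Ssbp1 and Tfb1m lower by 0.83, 0.55 and 0.84. In that comparison 8 of the 13 mitochondrially encoded transcripts were higher.

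Of 21 genes for mitochondrial RNA processing, stability and decay, 2 rose and 13 fell with LPS (median -0.51), beside 14.2% and 48.9% of all genes. From LPS to LPS/Sal-B 1 rose and 12 fell (median -0.49), beside 10.5% and 31.8%. Fastkd5, which processes mitochondrial precursor RNA, fell by 2.10 ± 0.12 with LPS (adjusted p = 0.000237), from 5.88 and 6.22 FPKM to 0.519 and 0.788 FPKM. Trmt10c, a subunit of mitochondrial RNase P, Mtpap, the mitochondrial poly(A) polymerase, and Pnpt1, a mitochondrial exoribonuclease, were 1.23, 1.19 and 1.04 lower with Sal-B than with LPS alone (adjusted p = 0.00164, 0.00253 and 0.00196).

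Among 9 regulators of nuclear respiratory genes 2 rose and 2 fell with LPS, beside 14.2% and 48.9% of all genes. Esrra, a nuclear receptor that drives such genes, rose by 1.52 ± 0.10 (adjusted p = 0.000299), from 5.20 and 4.86 FPKM to 17.0 and 15.6 FPKM, and measured 12.4 and 13.4 FPKM with LPS/Sal-B. Myc rose by 2.45 ± 0.11 (adjusted p = 0.000148), and Gabpa, the ETS-domain part of the factor GABP, fell by 0.87 with LPS and by 0.77 from LPS to LPS/Sal-B. Of 36 assembly factors outside the name rule 7 rose and 12 fell with LPS, beside the same shares of all genes, and 1 rose and 17 fell from LPS to LPS/Sal-B, beside 10.5% and 31.8%. Cox17, which brings copper to complex IV, rose by 1.90 ± 0.11 with LPS (adjusted p = 0.000237), from 8.27 and 6.92 FPKM to 31.5 and 30.2 FPKM. Bcs1l, which inserts the Rieske protein into complex III, fell by 1.68 ± 0.10 (adjusted p = 0.000257). Among 15 electron carriers and complex III genes outside the name rule 1 rose and 5 fell with LPS, beside 14.2% and 48.9% of all genes, and the one that rose was Cycs, cytochrome c, at 65.8 and 55.3 FPKM in control, 123 and 123 FPKM with LPS and 81.5 and 84.3 FPKM with LPS/Sal-B. In LPS/Sal-B against LPS 1 of these 15 rose and 5 fell, beside 10.5% and 31.8% of all genes.

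Among the nuclear members, the difference with LPS went with transcript length. Of the 45 shorter members, at or under the median annotated length of 913 bases, 22 rose and 4 fell, and of the 45 longer ones 13 rose and 12 fell. The Spearman correlation between length and difference was -0.37 across the 90 members, a description across genes that share libraries. Across 9990 genes it was -0.16, and the median difference of the 523 genes as short as the shorter members was 0.25, beside 0.27 for those members. The longer members had a median of -0.15, beside -0.43 for all longer genes. From LPS to LPS/Sal-B the shorter members had a median of -0.48 and the longer ones -0.61, beside -0.36 for all short genes and -0.22 for all longer genes. The part of transcript length in the members' differences was not tested.

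**Figure D5:**
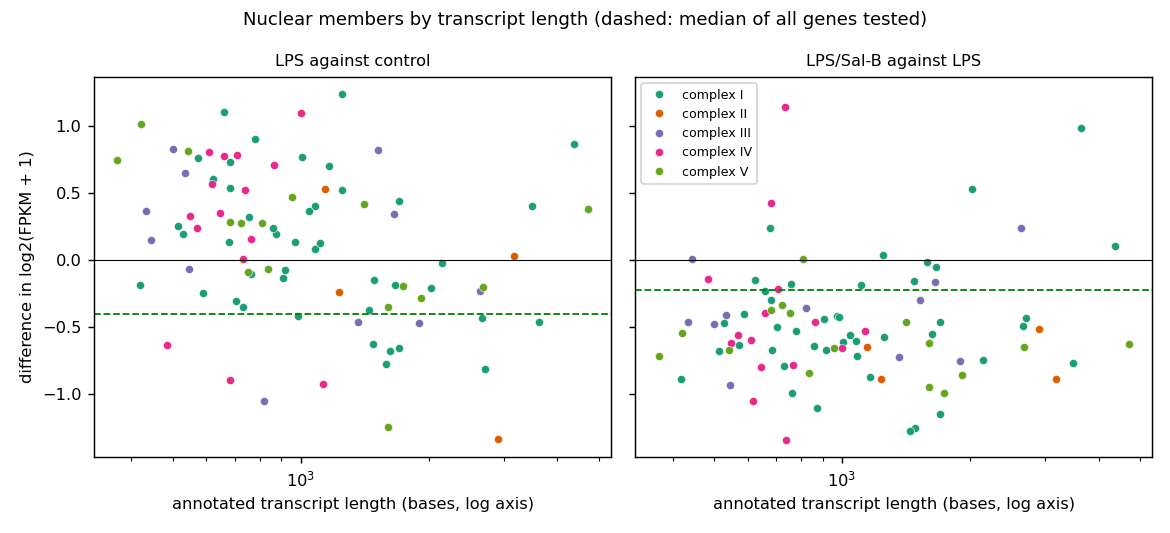
Difference in log2(FPKM + 1) of each of the 90 nuclear members against the length of its annotated transcript in bases (log axis), coloured by complex, for LPS against control (left) and LPS/Sal-B against LPS (right); the dashed line is the median of all genes tested. On the left the shorter members lie mostly above 0 and the longer ones on both sides of it, and on the right most members of any length lie below the dashed line.

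The promoters of the nuclear members were searched for the letters of motifs linked to respiratory genes, on both strands, from 250 bases before to 50 bases after the start (RefSeq, GRCm38.p6; 74 of the 90 matched). The NRF1 motif (GCGCA, any base, GCGC) was in 27.0% of these 74, in 5.19% of all 27025 promoters and in 12.7% of the 8412 promoters of genes in the table. The ETS core CCGGAAG was in 24.3% of members and 22.2% of genes in the table, the YY1 letters AAGATGG in 16.2% and 8.99%, and the E-box CACGTG in 8.11% and 12.2%. Members with the NRF1 letters had a median difference with LPS of 0.21 and those without it 0.30. The 250 bases before the start are shown for 3 members with NRF1 letters whose values took unlike courses with LPS: Sdha fell in each alternative, the fall of Sdhd was lost when a treated library was left out, and Cox6a1 was not called. All lie on the minus strand, and capitals mark matches to the NRF1 and ETS letters on either strand.
Sdha, chr13:74350241-74350490: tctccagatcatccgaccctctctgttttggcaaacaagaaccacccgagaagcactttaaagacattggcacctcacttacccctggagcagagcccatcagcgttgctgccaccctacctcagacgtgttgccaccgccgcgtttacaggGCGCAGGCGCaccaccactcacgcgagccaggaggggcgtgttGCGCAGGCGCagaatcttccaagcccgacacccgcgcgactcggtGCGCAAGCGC
Sdhd, chr9:50603850-50604099: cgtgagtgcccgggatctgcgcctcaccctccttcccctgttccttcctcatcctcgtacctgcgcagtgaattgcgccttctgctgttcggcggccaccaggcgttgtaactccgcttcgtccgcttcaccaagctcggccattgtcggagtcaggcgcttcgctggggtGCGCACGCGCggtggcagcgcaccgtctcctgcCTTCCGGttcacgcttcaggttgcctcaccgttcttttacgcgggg
Cox6a1, chr5:115348959-115349208: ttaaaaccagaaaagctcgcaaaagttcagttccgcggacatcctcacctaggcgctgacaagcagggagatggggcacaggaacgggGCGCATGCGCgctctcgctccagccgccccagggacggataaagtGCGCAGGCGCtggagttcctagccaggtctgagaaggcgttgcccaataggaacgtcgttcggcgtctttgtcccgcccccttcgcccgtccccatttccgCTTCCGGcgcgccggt
Sdha held 3 NRF1 matches, Sdhd 1 NRF1 and 1 ETS match, and Cox6a1 2 NRF1 matches and 1 ETS match. A match of letters is a description and does not show that a factor binds there.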

How the data were processed

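RNA from RAW264.7 cells was measured in 6 libraries. Per the labels' protocols RNA came from a Trizol extraction, messenger RNA was enriched by poly(A) isolation or by removing ribosomal RNA, and stranded library kits were used; which enrichment each library had is not stated, and mitochondrial transcripts may be captured differently by each. The deposited values are FPKM made by the authors; cutadapt, HISAT2 2.0.5, StringTie and GRCm38 are named in the submitters' processing notes, and no scaling between libraries is given. On the log2(FPKM + 1) scale, the 10014 genes reaching 1 FPKM in at least 2 libraries entered one limma 3.58.1 model (R 4.3.3) with 3 group means, 3 residual degrees of freedom, empirical Bayes with a trend and two-sided Benjamini-Hochberg adjusted p over all genes in each of the 3 comparisons. The procedure was tested on simulated data in which the 3 groups had equal spread. That test did not cover the unequal spread seen here.

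Members were taken by symbol and assigned to complexes by hand, with Ndufa4 in complex IV. The members and gene lists were chosen with earlier results of these data known. Named genes were all mitochondrially encoded and complex II genes, the isoform families, the highest nuclear subunit of each other complex, the 3 largest rises and 3 largest falls with no overlap in each comparison and role, and up to 4 genes of each other list by p. Not all are described, and a gene that the rule names is not reported here. The libraries share replicate numbers only. Alternatives were a pseudocount of 0.1, no filter or one of 5 FPKM, 4 scalings, a replicate block, a model of the 2 groups compared, no trend, each library left out and, chosen after seeing the data, the LPS/Sal-B pair averaged to 1 sample. Gene models, transcript lengths and near-identical copies came from GENCODE M21.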

Additional observations from a re-analysis of the deposited data

How the results depend on the processing

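The 9 mitochondrially encoded falls with LPS, the direction of the ratio differences when any library was left out and the main direction of the nuclear falls from LPS to LPS/Sal-B kept their sign; the counts moved. With LPS against control, the mitochondrially encoded genes called higher were 0 after scaling to the same total or the same nuclear total, with only the 2 groups compared, or with the LPS/Sal-B pair averaged to 1 sample (an alternative chosen after seeing the data), and 3 after scaling to the same median. The nuclear genes called higher were 15 with the same nuclear total and 58 with the same median, and those called lower 30 with the same total, 37 with the same nuclear total and 7 with the same median. From LPS to LPS/Sal-B, averaging the pair left 2 mitochondrially encoded genes higher, 0 nuclear genes higher and 19 lower; a filter of 5 FPKM gave 1 mitochondrially encoded gene lower and only the 2 groups compared gave 2. In that comparison nuclear genes higher were 9 with the same nuclear total, and those lower 30 with the same total, 20 with the same nuclear total, 40 with the same median and 28 with quantile normalization. For LPS/Sal-B over control, mitochondrially encoded genes higher were 1 with quantile normalization or the averaged pair and those lower 6 with the same median; nuclear genes higher were 43 with the same median, 23 with quantile normalization and 6 with the averaged pair, and those lower 18 with the same median.

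With 1 library left out, mitochondrially encoded genes called higher and lower ranged from 0 to 2 and from 9 to 10 for LPS against control, 2 to 10 and 0 to 2 from LPS to LPS/Sal-B, and 1 to 3 and 8 to 10 for LPS/Sal-B over control. Nuclear genes ranged from 22 to 41 and 10 to 24, 0 to 5 and 18 to 72, and 6 to 20 and 38 to 52. The log2 ratio differences in complexes I, III, IV and V ranged from -2.05 to -1.99, -2.72 to -2.54, -0.35 to -0.21 and -0.29 to -0.22 with LPS, 1.02 to 1.03, 1.03 to 1.07, 0.70 to 0.80 and 0.75 to 0.86 from LPS to LPS/Sal-B, and -1.03 to -0.96, -1.67 to -1.49, 0.40 to 0.54 and 0.50 to 0.61 over control. Where a group is left with 1 library, it is assumed to vary like the others, though control varied more than the treated groups.

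With means of log2 values in place of sums, the ratio differences in complexes I, III, IV and V were -2.18, -2.53, -0.48 and -0.33 with LPS and 0.95, 1.02, 0.67 and 0.69 from LPS to LPS/Sal-B, and over control -1.23, 0.19 and 0.35 in I, IV and V. With the median member they were -1.26, -2.50 and -0.98 in I, III and IV with LPS, 0.78, 0.73, 0.58 and 1.08 in I, III, IV and V from LPS to LPS/Sal-B, and -0.48, -1.76, -0.39 and 0.82 over control. The sign of complex IV over control therefore depends on the summary.

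Named genes that changed sign, and were called either as reported or under the alternative, did so mostly under scaling. Differences called in neither changed sign in 10 further cases with the same total, 12 with the same nuclear total, 12 with the same median, 11 with quantile normalization and 13 with a library left out. With the same median and LPS against control the genes with a call were mt-Atp6 (0.43), Sdhd (0.20), Atp5g2 (0.34) and Ndufb10 (0.080). Over control with LPS/Sal-B they were mt-Nd5 (0.26), mt-Atp8 (0.22), Sdhb (0.52), Cox4i1 (0.043), Cox6a1 (0.35), Cox6a2 (0.20), Cox6b1 (0.18), Cox8a (0.38), Atp5g1 (0.35), Atp5g2 (0.18), Atp5g3 (0.60), Uqcr10 (0.57) and Cox5a (0.21). With the same nuclear total and LPS against control they were mt-Co3 (-0.084), Sdhc (-0.37), Cox8a (-0.080), Atp5g3 (-0.13), Uqcr10 (-0.048) and Cox5a (-0.060), and from LPS to LPS/Sal-B Atp5g3 (0.045) and Ndufv3 (0.36). With quantile normalization they were Cox6a1 (-0.28), Cox8a (-0.19) and Uqcr10 (-0.0049) with LPS, mt-Atp8 (0.33) from LPS to LPS/Sal-B and Atp5g1 (0.36) over control; it also sets mt-Co1 to the same value in every library. Uqcrh stood at -0.43 and 0.29 with LPS without control replicate 2 and 3.

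Libraries share only replicate numbers, which do not tell whether same-numbered ones were prepared together. Same-numbered libraries did not deviate together across genes (correlations of 0.014, 0.0037 and 0.035), so the values gave no reason for the replicate block. With it, nuclear genes higher and lower were 32 and 15 with LPS, 3 and 60 from LPS to LPS/Sal-B, and 11 and 45 over control. The median of all genes moved from -0.40 to -0.04 with LPS when libraries were scaled to the same median, so whether a member rose or only held its level against a general fall depends on the scale. With 2 libraries a group and no usable estimate of depth, small differences cannot be resolved.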
